A study of Mus musculus with 8 samples.

Results

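The response of kidney endothelium to lipopolysaccharide (LPS, a bacterial cell wall endotoxin) in SOCS3iKEO mice was taken from 3 of the 8 libraries of the study, 2 from LPS mice and 1 from a saline mouse. In SOCS3iKEO mice Socs3 can be deleted from endothelial cells by an inducible Cre. The LPS mice received 250 µg of LPS in 250 µl by intraperitoneal injection, the saline mouse received 250 µl of saline, and kidneys were taken 14 h later. The remaining libraries came from 3 wild-type (WT) mice with LPS and 2 WT mice with saline. All 8 mice carried a ribosomal protein tagged with green fluorescent protein (EGFP/Rpl10a) that is switched on in endothelial cells by the tamoxifen-inducible cdh5-CreERT2 driver. Per the labels, messenger RNA on the tagged ribosomes was isolated, and it was read with a targeted panel of 23930 amplicons, 1 for each gene. Mice were randomised to LPS or saline by genotype and sex inside each litter, and the labels give neither the age nor the sex of single mice. All genes of the panel were considered, and 12820 with enough reads were tested.

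SOCS3 is induced by the transcription factor STAT3 and binds the receptor chain gp130 and its JAK kinases. It thereby ends the signal of interleukin 6 (IL-6) and its relatives, so cells without it keep STAT3 active for longer. Endothelial cells meet LPS through Toll-like receptor 4 and CD14 and answer through NF-kB with selectins, adhesion molecules, chemokines and IL-6. Acute-phase proteins such as fibrinogen and lipocalin 2 are known targets of IL-6 signalling in liver and other tissues.

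The libraries held 8431813 and 14096582 reads in SOCS3iKEO LPS and 7093794 in SOCS3iKEO saline, so that 1 read was worth 0.119, 0.0709 and 0.141 reads per 1000000 panel reads (RPM). The WT libraries held 11002719 to 14877519 reads. Levels below are RPM scaled between libraries by TMM, and differences are log2 fold changes of scaled RPM + 1, which understates the change of low genes. Genes that rose by 2 or more on the log2 scale took 41.5% and 37.3% of the reads after LPS against 6.74% after saline. The median log2 fold change of all genes was -0.08 after scaling and -0.73 on RPM as deposited, a shift of -0.66. With 1 saline mouse, the spread between mice came from the other groups, which assumes that this mouse varied like them. Mouse numbers in the labels fell into 2 runs, the SOCS3iKEO LPS mice standing with WT saline and the SOCS3iKEO saline mouse with WT LPS. The run and LPS therefore cannot be told apart within SOCS3iKEO. Between the SOCS3iKEO saline library and the WT saline libraries, which belong to different runs, 0 genes passed (limma, 423 at an unadjusted p under 0.05; edgeR 0, with 353). With the WT saline libraries in place of the SOCS3iKEO saline library, no gene list below gained or lost more than 3 large changes upward or 1 downward.

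Socs3 itself (chromosome 11, 117966079 to 117970336) had 20 and 25 reads after LPS, against 2 after saline, or 3.53 and 2.50 scaled RPM after LPS, against 0.226 after saline. Both LPS libraries lay above the saline library, at a ratio of 13.3 with a counting interval of 3.69 to 110 (95%), but the log2 fold change of 1.70 (SE 0.76) missed the threshold (limma, adjusted p = 0.0973). It passed in 4 alternative settings, with adjusted p of 0.00745 to 0.0388. In WT Socs3 had 118, 17 and 26 reads after LPS, against 9 and 3 after saline, or 9.94, 1.18 and 2.34 scaled RPM after LPS, against 0.500 and 0.162 after saline. The SOCS3iKEO LPS values thus lay inside the range of the WT LPS values, and the difference of the LPS effects, SOCS3iKEO minus WT, was -0.01 (SE 0.95, adjusted p = 0.998). Whether its amplicon lies inside the deleted stretch is not given in the sources used here, so these reads are no test of genotype.

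Many genes changed with LPS in the kidney endothelium of SOCS3iKEO mice. Of 12820 genes, 2589 were higher (20.2%) and 3058 were lower (23.9%) at an adjusted p under 0.05 (limma, Benjamini-Hochberg). Since 1 saline library is a thin base, only large changes are described: a log2 fold change of at least 2 in size that passed the test, with each LPS library at least 1 log2 unit from the saline library on the same side. In a bulk sample fewer cells of a type and less RNA per cell cannot be told apart. There were 890 large changes upward (6.94% of the genes tested) and 972 downward (7.58%). The upward ones had a median of 2.67 and the downward ones of -2.50, with a median SE of 0.41 in each. Upward changes reached further on this scale, with 140 of at least 4 and 39 of at least 6 in size, against 48 and 0 among the downward ones. The reach depends on the pseudocount, the 1 added to scaled RPM. With it a fall is bounded by the saline level and a rise by the LPS level. A pseudocount of 10 gave 485 upward and 240 downward large changes, and one of 0.1 gave 1169 and 1617. On RPM as deposited the counts were 402 up and 2186 down, or 15.5% upward against 47.8% after scaling. All 972 downward genes and 402 of the 890 upward genes (45.2%) remained large on that scale. Its downward shift by itself keeps falls large, so these numbers do not show that falls were firmer than rises. With RLE size factors, another scaling, all 890 upward genes and 897 of the 972 downward genes (92.3%) remained large. Set against the WT saline libraries of the same number run, 901 genes were higher and 1023 lower, and these held 755 of the 890 (84.8%) and 821 of the 972 (84.5%).

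Gene lists are described below by the number of tested members with a large change, to be read against the 6.94% upward and 7.58% downward of all genes. Where a list has 1 or 2 large changes in a direction, nothing is read from that number. A member with too few reads was not tested, and one that passed the filter only through the LPS libraries had to be higher there, so the counts are no support for a list as a whole. Tested were 4 of 7 measured IL-6 family ligands, 19 of 26 acute-phase genes, 20 of 25 chemokines and colony-stimulating factors, 12 of 15 adhesion molecules, 16 of 22 IL-1 and TNF family genes and 20 of 26 clotting genes. Also tested were 15 of 20 Toll-like receptor genes, 8 of 10 metallothionein and zinc genes, 17 of 25 vasoactive genes, 9 of 12 IGF genes, 14 of 16 inflammasome and necroptosis genes and 26 of 30 matrix genes, and no other gene list lost more than 1 measured member.

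**Figure D1:**
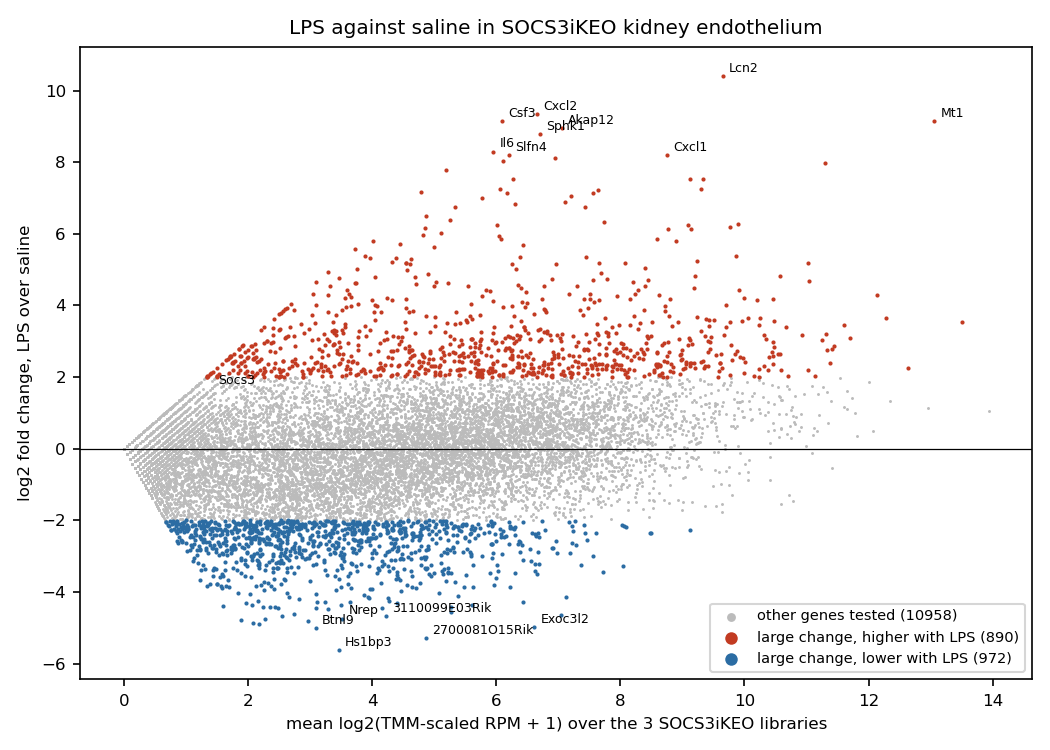
LPS against saline in SOCS3iKEO for all 12820 genes tested, with the log2 fold change on the vertical axis and the mean level of the 3 SOCS3iKEO libraries, log2(TMM-scaled RPM + 1), on the horizontal axis. Large changes are coloured, 890 upward and 972 downward, and the upward arm reaches 10.41 at Lcn2 while the downward arm ends at -5.63 at Hs1bp3. The 1 added to each level limits how far a fall can reach.

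Lcn2, which encodes the iron-siderophore binding protein lipocalin 2 (chromosome 2, 32384637 to 32387739), stood highest among the changes. It had 8479 and 9397 scaled RPM after LPS, against 5.54 after saline (log2 fold change 10.41, SE 0.27, adjusted p = 1.8e-07). The LPS libraries lay close to each other and far above saline. Mt1, the zinc-binding metallothionein 1 (chromosome 8, 94178883 to 94180327), had 85277 and 58723 after LPS, against 124 after saline (log2 fold change 9.15, SE 0.81, adjusted p = 0.000147). Mt1 was the most abundant gene of the LPS libraries, with 57253 and 41630 RPM as deposited, against 154 after saline. Both genes are also known to rise in injured tubule cells, whose markers summed to 1799.6 and 1633 RPM as deposited after LPS, against 142.9 after saline, and the part of such cells was not tested.

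Inflammatory messengers filled much of the top. Cxcl2, a chemokine for neutrophils (chromosome 5, 90903899 to 90905938), had 973 and 778 after LPS, against 0.339 from 3 reads after saline, a ratio of 2580 with a counting interval of 883 to 12511. Cxcl1, a second neutrophil chemokine, had 3241 and 2553 after LPS, against 8.82 after saline (log2 fold change 8.19, SE 0.30, adjusted p = 1.99e-06). Il6, the cytokine itself (chromosome 5, 30013114 to 30019975), had 493 and 357 after LPS, against 0.339 after saline from 3 reads, a ratio of 1252 with a counting interval of 428 to 6070. Csf3, the granulocyte colony-stimulating factor (chromosome 11, 98700183 to 98703631), had 577 and 549 after LPS and 0 reads after saline, so it was at least 1659-fold higher, taking 3 reads in that library as the floor. In each of these genes both LPS libraries stood together and far above the saline library. Cxcl10, a chemokine for T cells, was less even, with 30283 and 8379 after LPS, against 62.7 after saline (log2 fold change 7.97, SE 0.76, adjusted p = 0.000187), so that its LPS libraries lay 1.85 log2 units apart but did not reach the saline level.

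The other leaders were of mixed kinds. Akap12, a scaffold of protein kinase A, had 1574 and 709 scaled RPM after LPS, against 1.13 after saline (log2 fold change 8.96, SE 1.03, adjusted p = 0.000387). Sphk1, which makes the lipid messenger sphingosine 1-phosphate, had 913 and 684 scaled RPM after LPS, against 0.792 after saline (log2 fold change 8.79, SE 0.70, adjusted p = 0.000117). Cebpd, a transcription factor of the acute-phase response, had 454 and 431 scaled RPM after LPS, against 0.679 after saline (log2 fold change 8.05, SE 0.55, adjusted p = 7.99e-05). For all 3 both LPS libraries were far above saline, with the first higher for Akap12. Slfn4, a Schlafen family gene, had 348 and 686 scaled RPM after LPS, against 0.679 after saline, and Ifi205, an interferon-inducible p200 family gene, had 957 and 675 scaled RPM after LPS, against 1.92 after saline. For both, reads may be shared with near-identical relatives. Lbx1, a homeobox transcription factor, had 245 and 196 scaled RPM after LPS and 0 reads after saline, at least 650-fold higher. Mctp2, a membrane protein with calcium-binding C2 domains, and AA467197 each had a log2 fold change of 7.54. Mctp2 had 315 and 608 scaled RPM after LPS, against 1.36 after saline, and AA467197 had 2738 and 3718 scaled RPM after LPS, against 16.2 after saline.

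**Figure D2:**
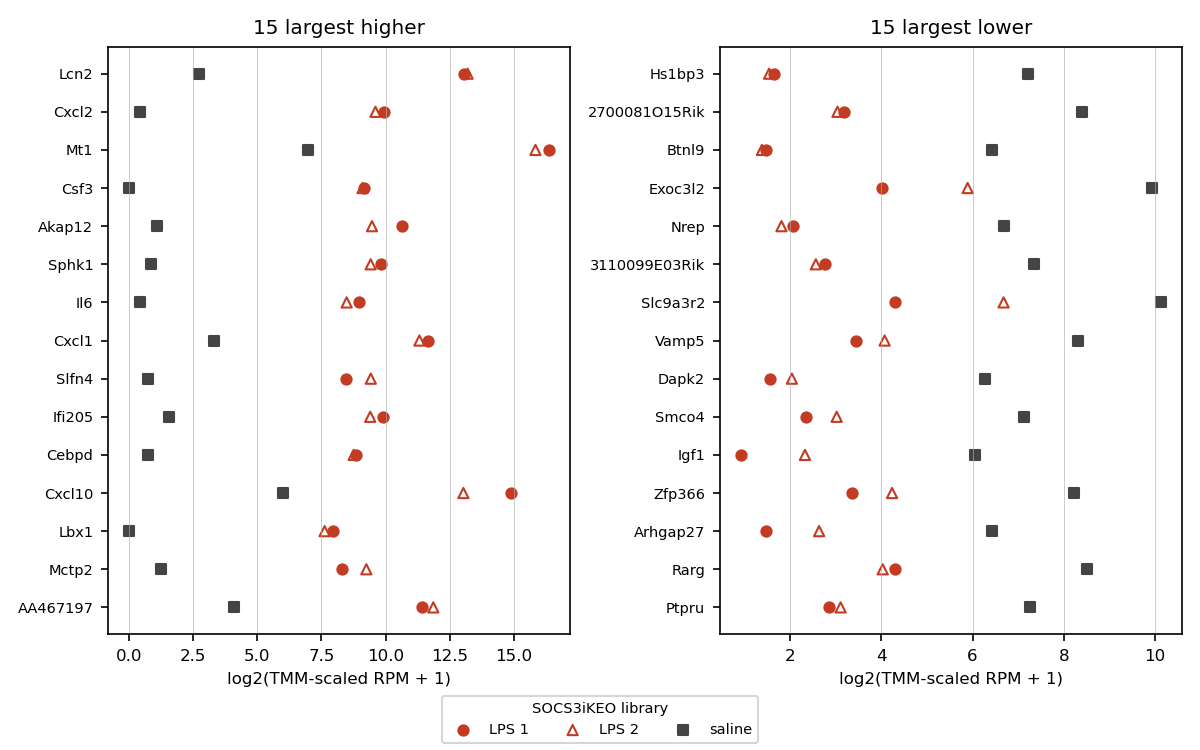
Levels of the 15 upward and 15 downward genes with the largest fold change in each SOCS3iKEO library, as log2(TMM-scaled RPM + 1), with circles and triangles for the 2 LPS libraries and squares for the saline library. Both LPS points lie on the same side of the saline point in all 30 genes, and farthest from each other in Cxcl10, Exoc3l2 and Slc9a3r2.

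The genes that fell most included surface proteins, signalling enzymes and scaffolds. Hs1bp3, a phospholipid-binding protein (chromosome 12, 8313433 to 8343824), fell to 2.12 and 1.90 after LPS, against 148 after saline (log2 fold change -5.63, SE 0.48, adjusted p = 0.000145). Btnl9, a butyrophilin-like surface protein abundant in capillary endothelium, had 1.77 and 1.60 scaled RPM after LPS, against 85.2 after saline (log2 fold change -5.01, SE 0.69, adjusted p = 0.000746). Nrep had 3.18 and 2.50 scaled RPM after LPS, against 102 after saline (log2 fold change -4.74, SE 0.37, adjusted p = 0.000117). In these genes the LPS libraries were nearly equal. Exoc3l2, a gene related to the exocyst complex, had 15.2 and 58.3 scaled RPM after LPS, against 971 after saline (log2 fold change -4.97, SE 0.61, adjusted p = 0.000499), and the scaffold Slc9a3r2 had 18.7 and 102 scaled RPM after LPS, against 1122 after saline (log2 fold change -4.64, SE 0.76, adjusted p = 0.00172). Here the first LPS library was the lower by 1.87 and 2.38 log2 units, and neither reached the saline level. Igf1, insulin-like growth factor 1, had 0.883 and 4.00 scaled RPM after LPS, against 65.5 after saline (log2 fold change -4.44, SE 0.57, adjusted p = 0.000581). Rarg, a retinoic acid receptor, had 18.5 and 15.3 scaled RPM after LPS, against 366 after saline (log2 fold change -4.36, SE 0.37, adjusted p = 0.000145). Both LPS libraries of each were again well below saline. The remaining 8 were 2700081O15Rik, 3110099E03Rik, the SNARE protein Vamp5, the kinase Dapk2, Smco4, the zinc finger gene Zfp366, Arhgap27 and the receptor phosphatase Ptpru. Their log2 fold changes lay between -5.29 and -4.30.

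Genes of IL-6 family signalling changed unevenly. Of 8 receptor genes 4 passed upward and 1 downward at any size, against 20.2% and 23.9% of all genes. Among the ligands tested, 3 of 4 rose by a large change and 0 fell. Beside Il6 these were Lif and Il27. Lif, leukaemia inhibitory factor, had 94 and 77 reads after LPS, against 2 after saline, a ratio of 53.7 with a counting interval of 14.9 to 444. Il27, the p28 chain of IL-27, had 4.77 and 4.60 after LPS and 0 reads after saline, at least 13.8-fold higher, and it passed the filter only through the SOCS3iKEO LPS libraries, having at most 4 reads in any WT library. Il6 and Lif had at most 3 reads in any saline library, so they too passed the filter only through LPS libraries. Of 8 receptor genes 2 rose by a large change. The oncostatin M receptor Osmr had 269.6 and 188 scaled RPM after LPS, against 21.4 after saline (log2 fold change 3.34, SE 0.32, adjusted p = 0.000194), and Il6ra, the IL-6 receptor, had 12 and 55 reads after LPS, against 1 after saline, a ratio of 33.7 with a counting interval of 6.05 to 1331. The shared chain gp130, Il6st, had 344 and 278 scaled RPM after LPS, against 127 after saline and passed the test below the size of a large change (log2 fold change 1.27, SE 0.26, adjusted p = 0.00485). Il6st did not pass on RPM as deposited (0.42, adjusted p = 0.214). Il27ra, a chain of the IL-27 receptor, had 0 and 2 reads after LPS, against 14 after saline (adjusted p = 0.0215), a call lost without the first LPS library (adjusted p = 0.0665).

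Downstream of the receptors the kinases moved apart. Jak2, the kinase of gp130 and many cytokine receptors, had 163 and 146 scaled RPM after LPS, against 19.1 after saline (log2 fold change 2.95, SE 0.35, adjusted p = 0.000435), whereas Tyk2, a kinase of interferon receptors, had 3.18 and 6.60 scaled RPM after LPS, against 45.7 after saline (log2 fold change -3.05, SE 0.64, adjusted p = 0.00498). The LPS libraries lay above saline for Jak2 and below it for Tyk2. Stat3 (chromosome 11, 100886806 to 100939594) had 2810.3 and 2313 scaled RPM after LPS, against 423 after saline (log2 fold change 2.59, SE 0.35, adjusted p = 0.000697). Stat5b fell short of a large change at 13.1 and 21.0 scaled RPM after LPS, against 51.0 after saline (log2 fold change -1.56, adjusted p = 0.0046). Of 9 kinases and STAT factors 2 rose and 1 fell by large changes, with a median of 1.11 against -0.08 for all genes. Among 14 feedback inhibitors the only large change was Socs2, a relative of Socs3 that dampens growth hormone signals, with 35.0 and 30.2 scaled RPM after LPS, against 0.566 after saline (log2 fold change 4.42, SE 0.52, adjusted p = 0.00041). The phosphatase Ptpn2 rose less (101 and 82.7 scaled RPM after LPS, against 24.3 after saline, log2 fold change 1.87), and Pias3 and Pias4, inhibitors of STAT factors, were lower with log2 fold changes of -1.67 and -1.65. The median of the inhibitors was 0.69 and turned to -0.15 on RPM as deposited.

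Of the known STAT3 target genes 15 of 18 rose by a large change and 0 fell, with a median of 4.10 (3.26 on RPM as deposited). Myc, a driver of growth genes (chromosome 15, 61985341 to 61990361), had 1263 and 880.1 scaled RPM after LPS, against 6.11 after saline (log2 fold change 7.21, SE 0.68, adjusted p = 0.00018). Cebpb, a transcription factor of inflammation, had 4406 and 3046 scaled RPM after LPS, against 48.7 after saline (log2 fold change 6.20, SE 0.38, adjusted p = 4.4e-05). Timp1, an inhibitor of matrix proteases, had 40.3 and 62.2 after LPS, against 0.226 from 2 reads after saline, a ratio of 227 with a counting interval of 62.7 to 1871. For each of the 3 the LPS libraries lay within 1 log2 unit of each other and above saline. Many genes of this list also answer to NF-kB or other factors.

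Acute-phase genes also rose, 13 of 19 by a large change with 0 large falls. Fga and Fgg encode fibrinogen chains of the clot. Fga had 248 and 299 scaled RPM after LPS, against 2.60 after saline (log2 fold change 6.25, SE 0.71, adjusted p = 0.000368). Fgg had 126 and 152 scaled RPM after LPS, against 1.13 after saline (log2 fold change 6.03, SE 0.69, adjusted p = 0.00038). Fgb, the remaining chain, named after its values were seen, had 17.3 and 52.3 scaled RPM after LPS, against 0.679 after saline (log2 fold change 4.22, SE 1.24, adjusted p = 0.0223). All 3 genes lie side by side on chromosome 3, and in each both LPS libraries stood above saline. Serpina3f, a serine protease inhibitor with near-identical relatives, had 289.7 and 259 scaled RPM after LPS, against 1.13 after saline (log2 fold change 7.01, SE 0.47, adjusted p = 7.94e-05). Of 3 hepatocyte markers tested 0 passed, and the whole list summed to 24.2 and 8.4 RPM as deposited after LPS, against 6.8 after saline.

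Promoters of acute-phase and metallothionein genes are shown because STAT3, C/EBP factors and the metal-sensing factor MTF1 are known to act on such genes. Windows run from 250 bases before to 50 after a RefSeq start site of the gene, 5′ to 3′ on the strand of the gene, with GRCm38.p6. In Fga and Fgb capitals mark matches to the STAT motif TTCNNNGAA or the C/EBP motif TTGCNNNAA, and in Mt1 matches to the metal response motif TGCACNC or TGCGCNC, searched on both strands.
Fga, chr3:83025903-83026202 (+): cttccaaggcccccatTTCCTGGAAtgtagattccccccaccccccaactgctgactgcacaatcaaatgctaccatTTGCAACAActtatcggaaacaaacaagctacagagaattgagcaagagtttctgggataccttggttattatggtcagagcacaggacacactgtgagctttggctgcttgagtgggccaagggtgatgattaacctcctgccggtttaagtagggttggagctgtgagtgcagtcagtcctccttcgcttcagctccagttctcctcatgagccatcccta
Fgb, chr3:83049814-83050113 (-): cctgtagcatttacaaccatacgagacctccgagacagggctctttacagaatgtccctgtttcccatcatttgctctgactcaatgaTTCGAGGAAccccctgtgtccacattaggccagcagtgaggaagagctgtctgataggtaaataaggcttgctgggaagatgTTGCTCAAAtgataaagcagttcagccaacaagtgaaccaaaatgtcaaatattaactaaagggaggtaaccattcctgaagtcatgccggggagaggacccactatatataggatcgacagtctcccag
Fgg, chr3:83007474-83007773 (+): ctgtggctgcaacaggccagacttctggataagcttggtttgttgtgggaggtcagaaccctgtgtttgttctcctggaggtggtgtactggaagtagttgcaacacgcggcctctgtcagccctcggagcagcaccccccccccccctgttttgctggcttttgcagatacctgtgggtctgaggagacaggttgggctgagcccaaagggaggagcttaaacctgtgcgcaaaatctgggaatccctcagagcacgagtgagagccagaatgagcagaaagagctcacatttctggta
Lcn2, chr2:32387690-32387989 (-): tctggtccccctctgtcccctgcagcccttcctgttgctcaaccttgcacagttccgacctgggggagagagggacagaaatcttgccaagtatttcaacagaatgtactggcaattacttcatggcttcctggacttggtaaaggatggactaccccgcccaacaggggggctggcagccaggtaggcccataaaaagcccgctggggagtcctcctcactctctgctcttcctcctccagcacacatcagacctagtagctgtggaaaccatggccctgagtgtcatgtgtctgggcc
Mt1, chr8:94178839-94179138 (+): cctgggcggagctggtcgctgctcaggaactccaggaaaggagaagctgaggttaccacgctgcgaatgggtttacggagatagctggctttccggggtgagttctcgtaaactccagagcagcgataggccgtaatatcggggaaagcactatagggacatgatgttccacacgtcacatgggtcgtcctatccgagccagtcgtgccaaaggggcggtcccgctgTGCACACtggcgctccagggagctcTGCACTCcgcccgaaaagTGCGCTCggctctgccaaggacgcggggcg
The Fga window held 1 STAT match, beginning at base -234 from the start, and 1 C/EBP match. The Fgb window also held 1 of each. In Mt1 there were 3 metal response matches, beginning at bases -23, 2 and 20 from the start site of its window. That site lies inside the Mt1 gene bounds given above, so these positions do not count from the outer bound at 94178883. The Fgg and Lcn2 windows held neither the STAT nor the C/EBP letters. The metal response letters also occurred once in each of the Fga and Fgg windows, not capitalised. A match describes letters only. Among 672 upward large changes with a window, 10.6% held the STAT motif, against 8.2% of 793 downward ones and 8.49% of all 10139 genes with one. The C/EBP motif was in 12.4%, 9.46% and 9.0% of the same sets, and the metal response motif in 39.4%, 43.6% and 40.4%. The NF-kB motif GGNNTTTCC was in 10.6%, 6.81% and 7.39%, and the interferon motif GAAANNGAA in 11.6%, 6.81% and 8.65%.

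The zinc transporter genes Slc39a14 and Slc39a8 rose beside Mt1. Of 8 metallothionein and zinc transporter genes 3 rose by a large change and 0 fell. At any size 4 passed upward, against 20.2% of all genes, and the others did not pass. The median was 0.86, or 0.11 on RPM as deposited. The zinc importer Slc39a14 had 18.5 and 25.8 scaled RPM after LPS, against 1.36 after saline (log2 fold change 3.28, SE 0.58, adjusted p = 0.00244). Its relative Slc39a8 had 36.6 and 26.6 scaled RPM after LPS, against 6.67 after saline (log2 fold change 2.07, SE 0.52, adjusted p = 0.0115), which did not pass on RPM as deposited (1.27, adjusted p = 0.0545). Mtf1, the metal-sensing transcription factor, had 22.1 and 31.5 scaled RPM after LPS, against 11.8 after saline (log2 fold change 1.10, adjusted p = 0.0211), and its value on RPM as deposited was 0.30 without a call.

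Immediate early and glucocorticoid-responsive genes were among the groups with the most large changes. Of 24 AP-1 and immediate early genes 16 rose and 0 fell by large changes (median 2.75). Fosl1, a partner of JUN proteins in AP-1, had 171 and 98.9 scaled RPM after LPS, against 0.453 after saline (log2 fold change 6.50, SE 0.70, adjusted p = 0.000296). Fos had 711 and 621 scaled RPM after LPS, against 17.3 after saline (log2 fold change 5.18, SE 0.88, adjusted p = 0.00194). Dusp5, a phosphatase of ERK, had 118 and 235 scaled RPM after LPS, against 1.02 after saline (log2 fold change 6.38, SE 0.84, adjusted p = 0.000649). These genes are known to turn on within minutes of a stimulus, and here they stood high at 14 h. Of 18 genes known to answer glucocorticoids 13 rose and 1 fell (median 3.19). Beside Lcn2, which other signals induce as well, these included Zbtb16, a zinc finger repressor, with 81.3 and 167 scaled RPM after LPS, against 1.36 after saline (log2 fold change 5.64, SE 0.48, adjusted p = 0.000145). Pdk4, a brake on glucose oxidation, had 673 and 533 scaled RPM after LPS, against 13.8 after saline (log2 fold change 5.34, SE 0.52, adjusted p = 0.000202). Errfi1, an inhibitor of the EGF receptor, had 2637 and 2728 scaled RPM after LPS, against 123 after saline (log2 fold change 4.43, SE 0.40, adjusted p = 0.000157).

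The LPS receptor system rose at the co-receptor. Cd14 had 3964 and 2851 scaled RPM after LPS, against 21.3 after saline (log2 fold change 7.24, SE 0.63, adjusted p = 0.000147). Tlr4 itself, given although outside the naming rule, had 75.4 and 97.6 scaled RPM after LPS, against 73.1 after saline with a log2 fold change of 0.23 that missed the threshold (SE 0.29, adjusted p = 0.549). The inhibitory kinase Irak3 had 414 and 368 scaled RPM after LPS, against 46.3 after saline (log2 fold change 3.05, SE 0.28, adjusted p = 0.000159), and its activating relative Irak2 had 458 and 473 scaled RPM after LPS, against 66.2 after saline (log2 fold change 2.80, SE 0.23, adjusted p = 0.000143). Tlr3, a sensor of double-stranded RNA, had 197 and 126 scaled RPM after LPS, against 34.6 after saline (log2 fold change 2.15, SE 0.32, adjusted p = 0.0011). In all 4 genes that rose both LPS libraries were above saline. These made 4 large rises and 0 large falls among 15 genes.

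NF-kB subunit and feedback genes rose in 7 of 17 cases by a large change, with 0 large falls (median 1.31, or 1.52 with members at 0 reads set to their bound). Nfkbiz, an atypical IkB that activates Il6 and Lcn2, had 2031 and 2671 scaled RPM after LPS, against 31.9 after saline (log2 fold change 6.15, SE 0.31, adjusted p = 2.02e-05). Tnfaip3, the deubiquitinase A20 that ends the signal, had 734 and 592 scaled RPM after LPS, against 23.8 after saline (log2 fold change 4.74, SE 0.32, adjusted p = 7.94e-05). The inhibitor Nfkbia had 7006 and 6782 scaled RPM after LPS, against 631 after saline (log2 fold change 3.45, SE 0.30, adjusted p = 0.000147), and the subunit Rel had 357 and 201 scaled RPM after LPS, against 17.4 after saline (log2 fold change 3.87, SE 0.36, adjusted p = 0.000179). All 8 values after LPS lay above their saline values. In the IL-1 and TNF families 6 of 16 rose and 0 fell by large changes. Tnfrsf9, the receptor 4-1BB, had 25.8 and 22.6 after LPS and 0 reads after saline, at least 71.3-fold higher. The IL-1 receptor Il1r1 had 109.7 and 213 scaled RPM after LPS, against 16.9 after saline (log2 fold change 3.11, SE 0.42, adjusted p = 0.000736), Cd40 had 181 and 152 scaled RPM after LPS, against 19.0 after saline (log2 fold change 3.06, SE 0.29, adjusted p = 0.000179) and Tnfrsf12a, the receptor of TWEAK, had 197 and 181 scaled RPM after LPS, against 18.1 after saline (log2 fold change 3.31, SE 0.49, adjusted p = 0.00107).

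Chemokines and colony-stimulating factors rose by large changes in 10 of 20 cases with 0 large falls. Cxcl11, a chemokine of the same receptor as Cxcl10, had 1139.6 and 404 scaled RPM after LPS, against 4.75 after saline (log2 fold change 6.89, SE 0.76, adjusted p = 0.000325), and like Cxcl10 it was higher in the first LPS library. Leukocyte adhesion molecules rose in 6 of 12 cases with 0 large falls. P-selectin, Selp, had 1023 and 653 scaled RPM after LPS, against 6.56 after saline (log2 fold change 6.76, SE 0.57, adjusted p = 0.000143). E-selectin, Sele, had 290.2 and 221 scaled RPM after LPS, against 6.79 after saline (log2 fold change 5.03, SE 0.38, adjusted p = 0.000106). Both selectins catch rolling leukocytes. Vcam1 had 1054 and 716 scaled RPM after LPS, against 39.5 after saline (log2 fold change 4.43, SE 0.43, adjusted p = 0.000202) and Icam1 had 262 and 267 scaled RPM after LPS, against 32.1 after saline (log2 fold change 3.00, SE 0.32, adjusted p = 0.000267), and both hold leukocytes firmly. Vcam1 is also raised in injured tubule cells, whose markers are given below.

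Interferon-stimulated genes formed a further block. Of 21 genes of the type I response 12 rose and 0 fell by large changes (median 2.47). Mx1, an antiviral GTPase (chromosome 16, 97447035 to 97462906), had 429.8 and 297 scaled RPM after LPS, against 1.36 after saline (log2 fold change 7.25, SE 0.39, adjusted p = 2.14e-05). Its neighbour Mx2 had 247 and 109 scaled RPM after LPS, against 6.79 after saline (log2 fold change 4.40, SE 0.50, adjusted p = 0.000363), and Oasl1, a regulator of antiviral defence, had 1452 and 639 scaled RPM after LPS, against 40.6 after saline (log2 fold change 4.53, SE 0.50, adjusted p = 0.000317). Both of these were higher in the first LPS library by over 1 log2 unit and above saline in each. Irf7, the master factor of this response, had 840.0 and 1444 scaled RPM after LPS, against 93.7 after saline (log2 fold change 3.54, SE 0.44, adjusted p = 0.000499). Among 12 GTPases and regulators of the interferon-gamma response 7 rose and 0 fell (median 2.31). The guanylate-binding protein Gbp2 had 3164 and 2304 scaled RPM after LPS, against 145 after saline (log2 fold change 4.21, SE 0.61, adjusted p = 0.000952). Gbp5 had 1888 and 1505 scaled RPM after LPS, against 137 after saline (log2 fold change 3.61, SE 0.63, adjusted p = 0.00231), and the factor Irf8 had 898 and 1027 scaled RPM after LPS, against 141 after saline (log2 fold change 2.76, SE 0.45, adjusted p = 0.00162). On RPM as deposited 7 type I and 3 interferon-gamma genes remained large upward.

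MHC class I genes rose in part, and no class II gene reached a large change. Of 13 class I presentation genes 12 passed upward and 4 were large changes (median 1.64), though 7 passed on RPM as deposited. H2-D1, a classical class I heavy chain, had 4986 and 4706 scaled RPM after LPS, against 723 after saline (log2 fold change 2.74, SE 0.27, adjusted p = 0.000222), and the peptide transporter Tap1 had 183 and 232 scaled RPM after LPS, against 24.7 after saline (log2 fold change 3.01, SE 0.41, adjusted p = 0.000745). H2-Q4, with 1474 and 1254 scaled RPM after LPS, against 152 after saline (log2 fold change 3.15, SE 0.31, adjusted p = 0.000213), has near-identical relatives that may share reads. Of 8 class II genes 0 rose and 0 fell by large changes, with a median of 0.25 that turned to -0.57 on RPM as deposited. Ciita, the class II master regulator, had 0.883 and 1.50 scaled RPM after LPS, against 7.24 after saline (log2 fold change -1.92, adjusted p = 0.0317), and its call was lost without either LPS library or either WT saline library (adjusted p up to 0.106).

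**Figure D3:**
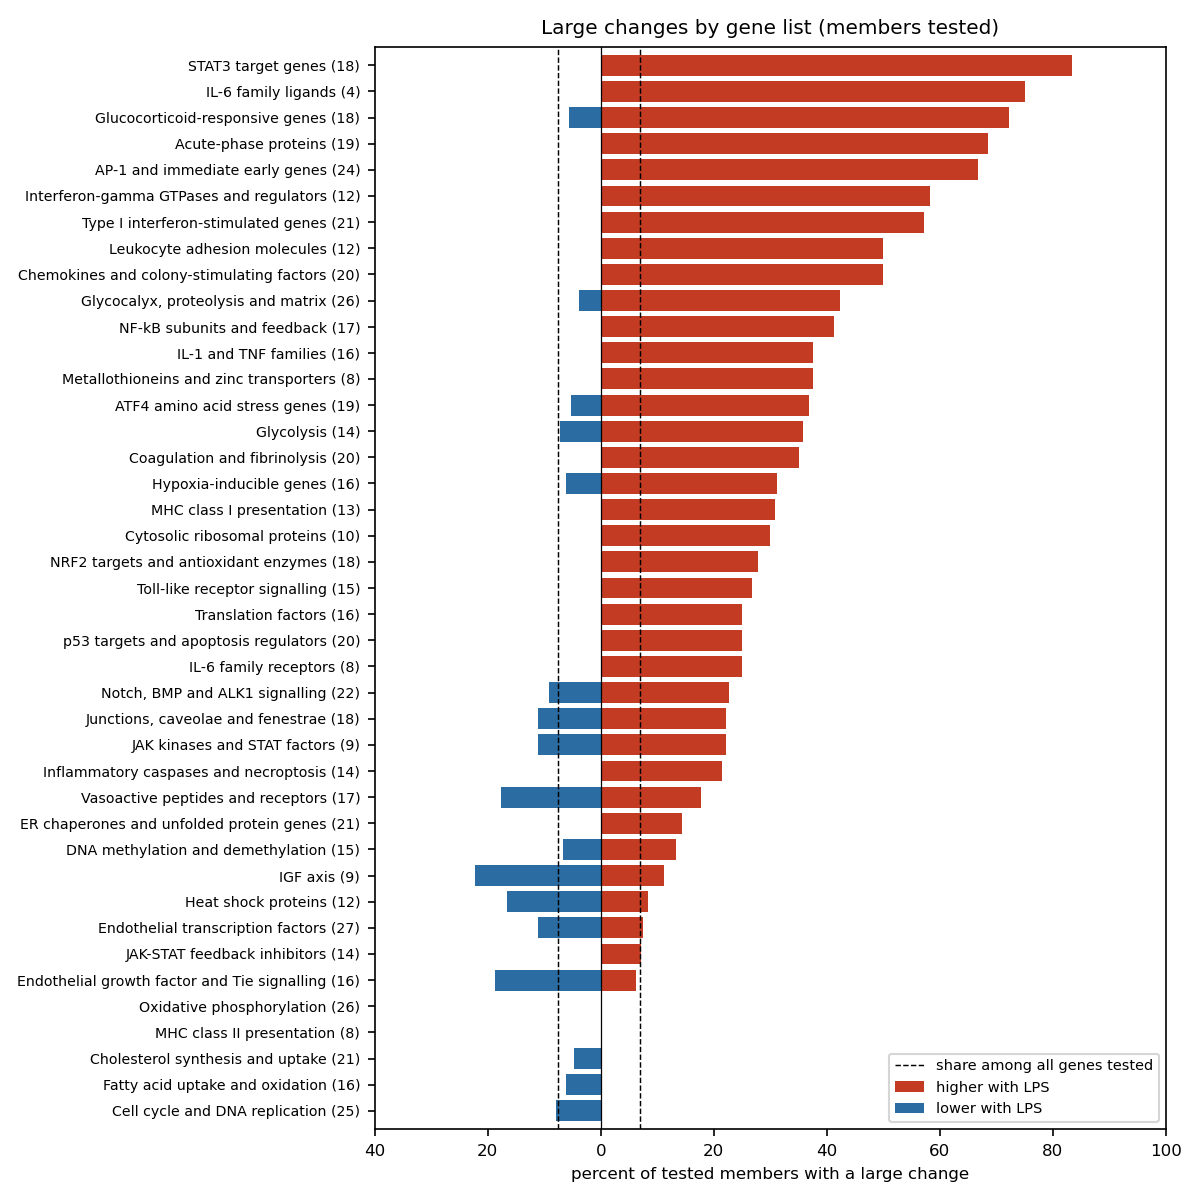
Percent of the tested members of each gene list that rose (to the right) or fell (to the left) by a large change with LPS in SOCS3iKEO, with the number tested in brackets and the share among all genes as dashed lines. STAT3 targets with 15 of 18 and IL-6 family ligands with 3 of 4 tested reach furthest to the right, against 6.94% of all genes. These 3 ligands passed the filter only through LPS libraries. The IGF axis with 2 of 9 reaches furthest to the left, against 7.58%.

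Genes of clotting and fibrin removal were among those that rose. Of 20 tested 7 rose and 0 fell by large changes, and on RPM as deposited 4 rose and 3 fell. Plat, tissue plasminogen activator (chromosome 8, 22757722 to 22782848), had 9191 and 4196 scaled RPM after LPS, against 239 after saline (log2 fold change 4.70, SE 0.65, adjusted p = 0.000784). Plat was the higher in the first LPS library and above saline in both. F3, tissue factor, which starts clotting, had 33.0 and 25.1 scaled RPM after LPS, against 0.905 after saline, or 187 and 251 reads after LPS, against 8 after saline (log2 fold change 3.97, SE 0.38, adjusted p = 0.000203). Plaur, the urokinase receptor, had 2734 and 2248 scaled RPM after LPS, against 195 after saline (log2 fold change 3.66, SE 0.34, adjusted p = 0.00018).

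Several receptors of vessel growth and quiescence fell. Aplnr, the apelin receptor (chromosome 2, 85136360 to 85139923), fell to 0.883 and 1.80 scaled RPM after LPS, against 55.5 after saline (log2 fold change -4.62, SE 0.47, adjusted p = 0.000237). Tek, the angiopoietin receptor TIE2 that keeps vessels quiet (chromosome 4, 94739086 to 94874976), fell to 30.9 and 27.2 after LPS, against 249 after saline (log2 fold change -3.06, SE 0.42, adjusted p = 0.00075). Angpt2, the ligand that opposes TIE2 signalling, rose to 164 and 551 after LPS, against 40.4 after saline (log2 fold change 2.87, SE 0.66, adjusted p = 0.00758), with the second LPS library the higher. Nrp1, a co-receptor of VEGF, had 10.6 and 19.1 scaled RPM after LPS, against 81.1 after saline (log2 fold change -2.43, SE 0.57, adjusted p = 0.00845). In all, 1 of 16 growth factor and Tie genes rose and 3 fell by large changes. In Notch and BMP signalling 5 of 22 rose and 2 fell, with a median of 0.40 that turned to -0.44 on RPM as deposited. The Notch ligand Dll4, a mark of arterial and tip cells, had 15.7 and 25.0 scaled RPM after LPS, against 139 after saline (log2 fold change -2.75, SE 0.32, adjusted p = 0.000415), whereas the ligand Dll1 had 179 and 165 scaled RPM after LPS, against 10.1 after saline (log2 fold change 3.96, SE 0.41, adjusted p = 0.000254). Bmp2 had 44.5 and 33.5 scaled RPM after LPS, against 1.81 after saline (log2 fold change 3.82, SE 0.34, adjusted p = 0.000147) and the BMP target Id2 had 694 and 362 scaled RPM after LPS, against 39.2 after saline (log2 fold change 3.64, SE 0.48, adjusted p = 0.000651). The 2 Notch ligands therefore moved in opposite directions in both LPS libraries.

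Among endothelial transcription factors large changes were about as frequent as over all genes. Of 27 tested 2 rose and 3 fell by large changes, while 11 and 5 passed the test upward and downward at any size, against 20.2% and 23.9% of all genes, and the median of 0.61 turned to -0.22 on RPM as deposited. Sox18, a factor of vessel and lymphatic identity (chromosome 2, 181669837 to 181671640), fell to 27.9 and 34.9 after LPS, against 624 after saline (log2 fold change -4.28, SE 0.47, adjusted p = 0.000321). Elk3, an ETS family repressor, had 25.8 and 33.3 scaled RPM after LPS, against 288 after saline (log2 fold change -3.25, SE 0.27, adjusted p = 0.00014). Gata5, a factor of glomerular endothelium, had 0.177 and 1.30 scaled RPM after LPS, against 10.6 after saline, or 1 and 13 reads after LPS, against 94 after saline (log2 fold change -2.82, SE 0.62, adjusted p = 0.00605). Klf6, induced by vessel injury, rose to 1374 and 1389 after LPS, against 176 after saline (log2 fold change 2.97, SE 0.42, adjusted p = 0.000855). Lyl1, a relative of the blood and endothelial factor Tal1, was among the genes whose response differed most from WT and had 0 and 2 reads after LPS, against 195 after saline.

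At cell contacts the pattern was mixed as well. Cdh5, VE-cadherin of the endothelial junction, whose promoter drives the Cre recombinase of all these mice, had 1493 and 1921 scaled RPM after LPS, against 269 after saline (log2 fold change 2.65, SE 0.27, adjusted p = 0.000231). Whether the transgene followed it was not tested. The gap junction gene Gja1 had 1037 and 1003 scaled RPM after LPS, against 192 after saline (log2 fold change 2.40, SE 0.44, adjusted p = 0.0027) and the tight junction gene Ocln had 14.7 and 7.50 scaled RPM after LPS, against 1.13 after saline (log2 fold change 2.44, SE 0.48, adjusted p = 0.00367). Cav1, the coat protein of caveolae (chromosome 6, 17306335 to 17341328), fell to 31.3 and 62.5 after LPS, against 508 after saline (log2 fold change -3.49, SE 0.46, adjusted p = 0.000653). Together 4 of 18 genes rose and 2 fell by large changes, and on RPM as deposited 0 rose and 3 fell.

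Vasoactive genes moved both ways, 3 of 17 upward and 3 downward by large changes. Npr3, the clearance receptor of natriuretic peptides, had 6.71 and 6.50 scaled RPM after LPS, against 83.2 after saline (log2 fold change -3.47, SE 0.47, adjusted p = 0.000736). The vessel-relaxing peptide adrenomedullin, Adm, had 92.2 and 203 scaled RPM after LPS, against 12.0 after saline (log2 fold change 3.41, SE 0.63, adjusted p = 0.0028), and Ece1, the enzyme that makes endothelin, had 59.9 and 30.5 scaled RPM after LPS, against 6.56 after saline (log2 fold change 2.53, SE 0.44, adjusted p = 0.00218). In the insulin-like growth factor (IGF) axis Igfbp3 was the second most abundant gene after LPS, with 24752 and 28155 scaled RPM after LPS, against 2262 after saline (log2 fold change 3.54, SE 0.51, adjusted p = 0.000877). Igfbp5, another binding protein, had 86.0 and 32.5 scaled RPM after LPS, against 944 after saline (log2 fold change -4.13, SE 0.58, adjusted p = 0.000798). With Igf1 itself lower, 1 of 9 genes of the axis rose and 2 fell.

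Glycocalyx, protease and matrix genes rose in 11 of 26 cases by a large change and 1 fell (median 1.47, or 1.65 with members at 0 reads set to their bound). The proteoglycan-cleaving protease Adamts4 had 1177 and 721 scaled RPM after LPS, against 10.5 after saline (log2 fold change 6.32, SE 0.44, adjusted p = 7.99e-05). Its relative Adamts9 had 131 and 191 scaled RPM after LPS, against 6.45 after saline (log2 fold change 4.42), and Adamts1 had 747 and 887 scaled RPM after LPS, against 39.8 after saline (log2 fold change 4.32). All 3 proteases were above saline in both LPS libraries.

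Stress programs rose in part. Of 19 amino acid stress genes 7 rose and 1 fell by large changes. Atf4, the factor of this program, had 5882 and 4089 scaled RPM after LPS, against 603 after saline (log2 fold change 3.02, SE 0.36, adjusted p = 0.000415). Its known targets Slc7a5, an amino acid transporter, and Mthfd2, an enzyme of one-carbon metabolism, rose too. Slc7a5 had 52.3 and 107 scaled RPM after LPS, against 2.15 after saline (log2 fold change 4.59), and Mthfd2 had 262 and 215 scaled RPM after LPS, against 9.73 after saline (log2 fold change 4.48). Among 21 chaperone and unfolded protein genes of the endoplasmic reticulum 3 rose and 0 fell, namely Xbp1, Hspa5 and Atf6. The transcription factor Xbp1 had 1890.2 and 973 scaled RPM after LPS, against 259 after saline, and the chaperone Hspa5 had 359 and 489 scaled RPM after LPS, against 79.7 after saline. The median of 0.42 turned to -0.37, and 0 were large rises, on RPM as deposited. Heat shock genes showed 1 rise and 2 falls among 12, and the small heat shock protein Cryab had 150.3 and 101 scaled RPM after LPS, against 1209.7 after saline (log2 fold change -3.28, SE 0.83, adjusted p = 0.0116).

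Redox and cell death genes rose in part. Of 18 antioxidant genes 5 rose by a large change and 0 fell. Sod2, mitochondrial superoxide dismutase, had 5114 and 4199 scaled RPM after LPS, against 164 after saline (log2 fold change 4.81, SE 0.47, adjusted p = 0.000209), and the glutathione enzyme Gclc had 488 and 544 scaled RPM after LPS, against 67.4 after saline (log2 fold change 2.92, SE 0.41, adjusted p = 0.000821). Of 20 p53 targets and apoptosis regulators 5 rose and 0 fell. Cdkn1a, the cell cycle inhibitor p21, was the fifth most abundant gene after LPS at 12586 and 11743 scaled RPM after LPS, against 626 after saline (log2 fold change 4.28, SE 0.36, adjusted p = 0.000145). The death-promoting Bcl2l11 had 136 and 135 scaled RPM after LPS, against 18.4 after saline (log2 fold change 2.81, SE 0.35, adjusted p = 0.000535) and the survival protein Mcl1 had 1305 and 1399.7 scaled RPM after LPS, against 256 after saline (log2 fold change 2.39, SE 0.34, adjusted p = 0.000842). Of 14 inflammasome and necroptosis genes 3 rose and 0 fell, the median of 0.65 turning to -0.02 on RPM as deposited. The LPS-sensing caspase Casp4 had 114 and 84.8 scaled RPM after LPS, against 10.9 after saline (log2 fold change 3.06, SE 0.33, adjusted p = 0.000288), and Mlkl, which opens the membrane in necroptosis, had 280.0 and 277 scaled RPM after LPS, against 29.4 after saline (log2 fold change 3.20, SE 0.38, adjusted p = 0.000411).

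Fuel genes were mixed. Hk2, hexokinase 2, had 72.6 and 59.1 scaled RPM after LPS, against 0.792 after saline (log2 fold change 5.21, SE 0.63, adjusted p = 0.000447), and Pfkfb3, an activator of glycolysis, had 1074 and 926 scaled RPM after LPS, against 118 after saline (log2 fold change 3.07, SE 0.51, adjusted p = 0.00183). Pfkm, a phosphofructokinase subunit, was lower, with 3.89 and 1.80 scaled RPM after LPS, against 24.7 after saline (log2 fold change -2.79, SE 0.46, adjusted p = 0.00171). Across glycolysis 5 of 14 rose and 1 fell by large changes, with a median of 0.68 that turned to -0.06 on RPM as deposited. Hif1a, the oxygen-sensing factor, had 1430.2 and 1909 scaled RPM after LPS, against 72.5 after saline (log2 fold change 4.49, SE 0.47, adjusted p = 0.000268), and of 16 hypoxia genes 5 rose and 1 fell (median 0.36, or -0.22 as deposited). Oxidative phosphorylation had 0 large rises and 0 large falls among 26 genes (median 0.34, or -0.51 as deposited). Of 21 cholesterol genes 0 rose and 1 fell by large changes (median 0.29, or -0.53 as deposited), and of 16 fatty acid genes 0 rose and 1 fell (median 0.60, or -0.19 as deposited). Their falls were Dhcr7, an enzyme of the last steps of cholesterol synthesis, with 2.30 and 1.80 scaled RPM after LPS, against 19.1 after saline, and Gpihbp1, the capillary anchor of lipoprotein lipase, with 24.2 and 56.4 scaled RPM after LPS, against 153 after saline.

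Cell cycle genes showed 0 large rises and 2 large falls among 25, the falls near the 7.58% of all genes, and a median of -0.96 (-1.74 as deposited, where 9 fell). Cyclin A2, Ccna2, had 0.706 and 4.30 scaled RPM after LPS, against 29.0 after saline (log2 fold change -3.32, SE 0.58, adjusted p = 0.00224), and cyclin B2, Ccnb2, had 0 and 0.701 scaled RPM after LPS, against 8.82 after saline, or 0 and 7 reads after LPS, against 78 after saline (log2 fold change -2.91, SE 0.46, adjusted p = 0.00149). The LPS libraries lay below saline for each. Of 10 ribosomal protein genes 8 passed upward and 3 were large, such as Rpl32 with 1771 and 1688 scaled RPM after LPS, against 230.2 after saline (log2 fold change 2.90, SE 0.45, adjusted p = 0.00125), but 3 passed on RPM as deposited. Of 16 translation factors 4 rose by a large change and 0 fell, led by Eif6 with 359 and 361 scaled RPM after LPS, against 44.7 after saline (log2 fold change 2.98, SE 0.40, adjusted p = 0.000656). Of 15 genes of DNA methylation 2 rose and 1 fell by large changes, near the 6.94% and 7.58% of all genes, the median of 0.06 turning to -0.79 as deposited. The demethylase Tet1 fell to 0 and 0.401 after LPS, against 3.96 after saline (log2 fold change -2.07, SE 0.36, adjusted p = 0.00226), and the methyl-binding protein Mbd2 had 2991 and 2195 scaled RPM after LPS, against 557 after saline (log2 fold change 2.20, SE 0.32, adjusted p = 0.00103).

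Endothelial markers, which check the labelled cell type, were present throughout. The 18 pan-endothelial markers summed to 4993.9 and 6743.6 RPM as deposited after LPS, against 12240.7 after saline, and none had 0 reads. At scaled RPM 4 of the 18 passed upward and 7 downward, against 20.2% and 23.9% of all genes. The rises were thus near the share of all genes. Large changes were 2 upward and 1 downward. Robo4, an endothelial guidance receptor, rose with Cdh5 and had 178 and 279 scaled RPM after LPS, against 42.3 after saline. Lower with Tek were Egfl7, which had 158 and 324 scaled RPM after LPS, against 858 after saline (log2 fold change -1.92), and Plvap, of the fenestrae, which had 1309.9 and 1185 scaled RPM after LPS, against 3053 after saline (log2 fold change -1.29). Marker genes other than those of the lists above were picked after their values were seen. Arterial markers summed to 245.1 and 319.5 RPM after LPS, against 968.3 after saline. At scaled RPM 5 of 9 passed downward, against 23.9% of all genes. Among them was Sema3g with 6.18 and 11.1 scaled RPM after LPS, against 51.6 after saline (log2 fold change -2.50, SE 0.37, adjusted p = 0.00107). Venous and capillary markers summed to 1531 and 1771.5 RPM after LPS, against 5862.6 after saline. Glomerular markers summed to 6342.3 and 3126.9 RPM after LPS, mostly from Plat, against 872.9 after saline, while Ehd3 had 156 and 131 scaled RPM after LPS, against 405 after saline (log2 fold change -1.50, adjusted p = 0.0438).

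Some tubule and blood cell markers moved with LPS too. Proximal tubule markers summed to 3067.5 and 1735.5 RPM as deposited after LPS, against 1602.7 after saline. At scaled RPM 6 of 16 passed upward, against 20.2% of all genes, and 2 of them were large. On RPM as deposited 1 passed upward and 0 were large. Tubule injury markers summed to 1799.6 and 1633 RPM after LPS, against 142.9 after saline, and 7 of 11 were large rises at scaled RPM, or 6 as deposited. Besides Vcam1 they included Spp1, osteopontin, with 1059 and 1021 scaled RPM after LPS, against 38.7 after saline (log2 fold change 4.71, SE 1.02, adjusted p = 0.00577), Sox9 with 245 and 275 scaled RPM after LPS, against 3.51 after saline (log2 fold change 5.85, SE 0.32, adjusted p = 2.33e-05) and Havcr1, KIM-1, with 4.77 and 14.3 scaled RPM after LPS, against 0.226 after saline, or 27 and 143 reads after LPS, against 2 after saline. Neutrophil markers summed to 35.3 and 16.7 RPM after LPS, against 1.3 after saline, and of 10 markers 3 had 0 reads in each LPS library, against 7 after saline. S100a9 had 26.9 and 8.91 scaled RPM after LPS and 0 reads after saline, while Mpo, Elane and Cxcr2 had 0 reads in every SOCS3iKEO library. Platelet markers summed to 17.8 and 32.6 RPM after LPS, against 3.4 after saline. Macrophage markers summed to 13.6 and 7.9 RPM after LPS, against 12.1 after saline, and T cell markers to 1.5 and 3.3 RPM after LPS, against 1.7 after saline. Markers shared by leukocytes summed to 117.3 and 106.2 RPM after LPS, against 46 after saline. The part of these cells in the changes above was not tested.

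**Figure D4:**
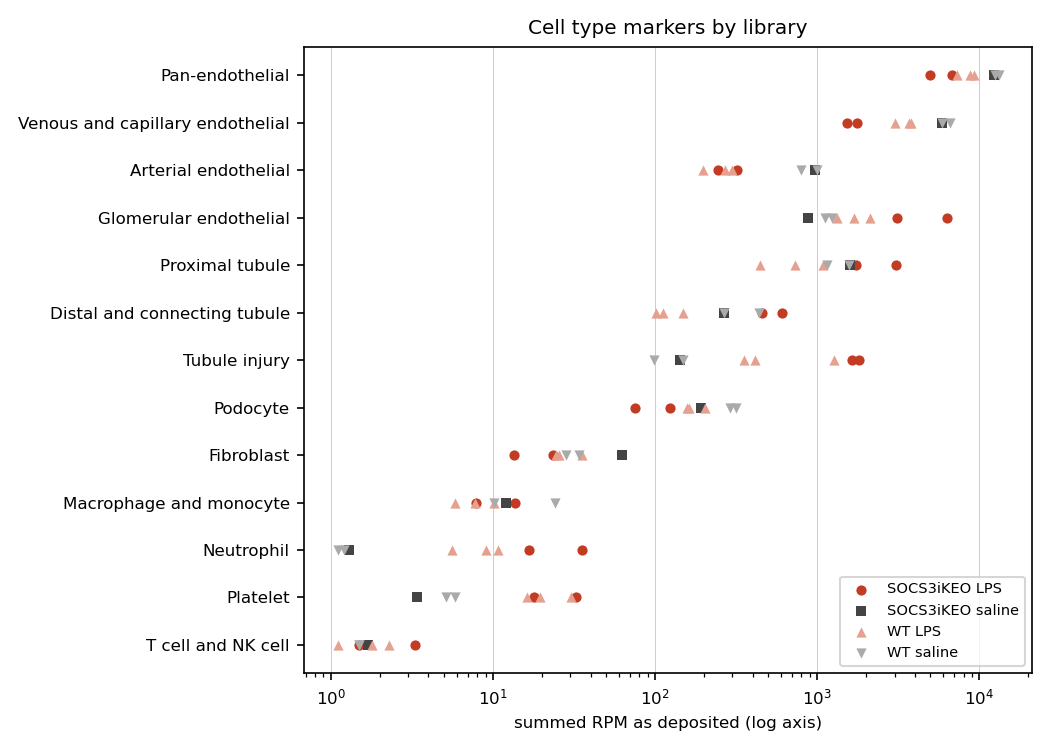
Summed RPM as deposited of a selection of the cell type marker lists in every library, on a log axis, with circles for SOCS3iKEO LPS, squares for SOCS3iKEO saline and triangles for WT. Pan-endothelial sums of 4993.9 and 6743.6 after LPS lie below the 12240.7 of saline, tubule injury and neutrophil sums lie above their saline values, and the macrophage sums lie on both sides of theirs.

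How far the SOCS3iKEO response went beyond that of WT was asked by the difference of the LPS effects, which share no library. In WT 878 genes were higher (6.85%) and 1127 lower (8.79%) with LPS. Of the 890 upward large changes of SOCS3iKEO, 359 (40.3%) also passed upward in WT, which is 40.9% of the WT calls, and 3 passed downward. Of the 972 downward ones 288 (29.6%) passed downward in WT, 25.6% of the WT calls, and 2 upward. The same genes had a median log2 fold change in WT of 0.81 and -0.66. The difference itself passed for 1149 genes upward (8.96%) and 1218 downward (9.5%). Among the large changes it passed with their own sign for 555 upward genes (62.4%) and 578 downward genes (59.5%). These genes were chosen by the SOCS3iKEO effect, which is itself part of the difference. The choice alone therefore favours high shares, and nothing is read from them. The counts of differences moved with single libraries. Without the first WT saline library 124 and 67 genes passed over the whole panel, and without the second 420 and 290. Without the second WT LPS library 498 and 457 passed, and without the third 535 and 489. Without the first SOCS3iKEO LPS library 742 and 803 passed, and without the second 1666 and 2011.

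Cell type markers and Y-linked genes also differed between SOCS3iKEO and WT. Proximal tubule markers summed to 1735.5 to 3067.5 RPM as deposited in SOCS3iKEO after LPS, against 1602.7 in SOCS3iKEO after saline, and to 446.9 to 1083.7 in WT after LPS, against 1146.2 to 1565 in WT after saline. The difference of effects was positive and passed for 11 of 16 of these markers. Distal tubule markers summed to 458 to 604.1 RPM in SOCS3iKEO after LPS and 101.9 to 149.4 in WT after LPS, with 268.1 in SOCS3iKEO after saline and 267.1 to 440.4 in WT after saline. Loop of Henle markers summed to 275.3 to 285.6 RPM in SOCS3iKEO after LPS and 64.2 to 82.1 in WT after LPS, and tubule injury markers summed to 1633 to 1799.6 RPM in SOCS3iKEO after LPS and 351.6 to 1269 in WT after LPS. Y-linked genes summed to 0.1 RPM in each SOCS3iKEO LPS library and 0.4 in SOCS3iKEO saline, but to 0.3, 295.2 and 301.7 RPM in WT after LPS and 0.1 and 255.8 RPM in WT after saline. Y-linked reads were thus abundant in 3 of 5 WT libraries and in 0 of 3 SOCS3iKEO libraries. The part of these markers and of sex in the differences from WT was not tested.

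For many genes far above saline in SOCS3iKEO the difference from WT did not pass. Among those named above were Ifi205, AA467197, Serpina3f, Stat3, Osmr, Icam1, Irak3, Plat, Igfbp3, Irf7 and Gbp2 (limma, adjusted p of 0.058 to 0.671). The values of 5 others follow. For Lcn2 the WT libraries had 3555, 2870.1 and 3423 scaled RPM after LPS and 1.67 and 1.13 after saline, and the difference of effects was -0.01 (SE 0.33, adjusted p = 0.989). For Fga it was 0.07 (SE 0.89) and for Fgg -0.01 (SE 0.87). For Mctp2 it was 0.35 (SE 0.53), and for Zbtb16 -0.54 (SE 0.60). This does not show that the effects were equal. Npr3 differed in the other direction, since it fell further in WT, to 1.10, 2.98 and 2.80 after LPS, against 103 and 183 after saline (difference 1.98, adjusted p = 0.0464), a call lost without any 1 of 6 libraries.

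Other genes stood well apart from WT. Cebpd had 9.10, 2.29 and 4.60 in WT after LPS, below both SOCS3iKEO values of 454 and 431, with 0.333 and 0.323 in WT after saline (difference 5.94, SE 0.69, adjusted p = 0.00344). Tnfrsf11b, the decoy receptor osteoprotegerin, rose in SOCS3iKEO to 90.1 and 99.6 after LPS, against 2.83 after saline, while WT had 1.85, 1.53 and 0.902 after LPS and 2.94 and 4.95 after saline (difference 5.66, adjusted p = 0.00281). Bmp2 had 1.77, 1.53 and 1.35 in WT after LPS and 2.61 and 2.42 after saline (difference 4.29, adjusted p = 0.00313). Il6 had 19.8, 2.78 and 5.95 in WT after LPS, all below the 493 and 357 of SOCS3iKEO after LPS. With 0 and 1 reads in WT saline the size of its difference depends on the pseudocount, at 5.30 with 1 (adjusted p = 0.0113, lost without the first WT saline library) and 4.08 with 0.1 (adjusted p = 0.0427). It was 2.27 with edgeR (adjusted p = 0.765) and 1.93 with DESeq2 (adjusted p = 0.577), neither a call. Downward, Pkn3, a kinase of the protein kinase C group, had 0.177 and 2.40 scaled RPM after LPS, against 42.4 after saline in SOCS3iKEO, and 53.7, 103 and 63.3 after LPS, against 34.7 and 36.9 after saline, in WT (difference -5.40, adjusted p = 0.00531). Rarg had 278, 557 and 438 in WT after LPS, near its 448 and 451 after saline (difference -4.22, adjusted p = 0.00313). Sox18 had 362, 909 and 772 in WT after LPS, against 715 and 759 in WT after saline (difference -4.06, adjusted p = 0.00606), and Cav1 had 231, 456 and 397 in WT after LPS, against 358 and 349 in WT after saline (difference -3.47, adjusted p = 0.00855), a call lost without the first WT saline library.

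**Figure D5:**
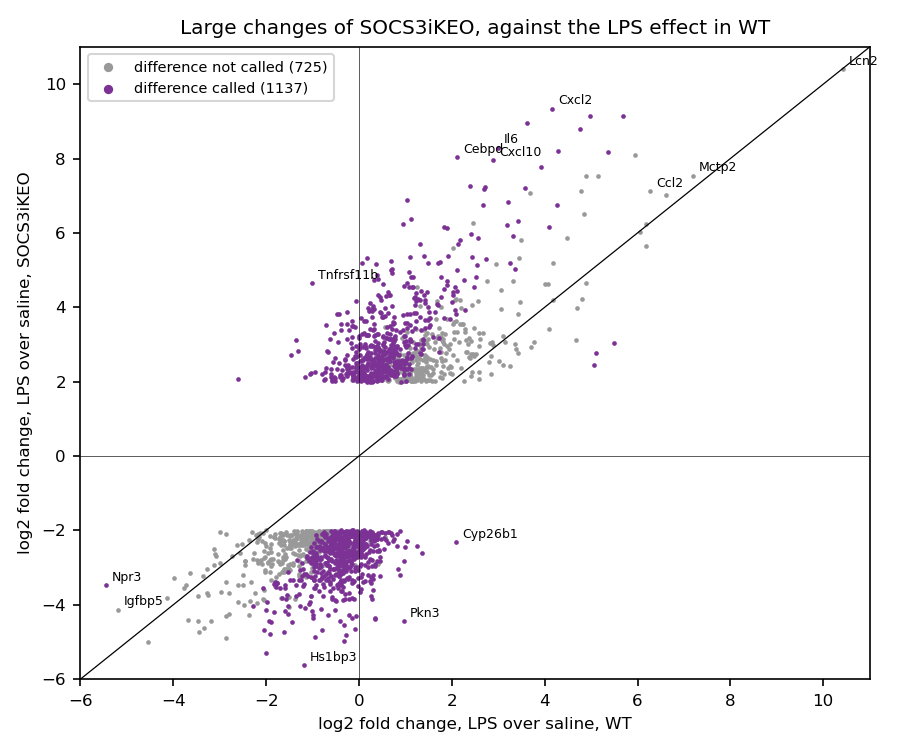
LPS effect in SOCS3iKEO (vertical axis) and in WT (horizontal axis) as log2 fold changes for the large changes of SOCS3iKEO, with a line of equal effect and genes coloured where the difference passed. Lcn2 and Mctp2 lie near the line, while Cebpd, Tnfrsf11b, Hs1bp3 and Pkn3 lie far from it on the side of the larger SOCS3iKEO change, and Npr3 lies on the other side.

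The LPS libraries of SOCS3iKEO themselves differed by more than 1 log2 unit for 94 of the 890 upward and 159 of the 972 downward genes, with median gaps of 0.37 and 0.50. The widest gaps among large changes were mostly in genes that fell. Jmjd4 had 4 and 92 reads after LPS, against 268 after saline, or 0.706 and 9.21 scaled RPM after LPS, against 30.3 after saline. Xpo1, the main nuclear export receptor, had 26.0 and 126 scaled RPM after LPS, against 323 after saline, and Commd10, a subunit of a vesicle sorting complex, had 3.89 and 23.5 scaled RPM after LPS, against 89.2 after saline. In these the first library was the lower. Cyp2a5, a cytochrome P450, was the upward case with 42.4 and 7.31 scaled RPM after LPS, against 2.71 after saline (log2 fold change 2.35, SE 0.79, adjusted p = 0.0375), and its call was lost without that first library and without any single WT library (adjusted p up to 0.0794). In 35 of the upward genes the saline library had 0 reads, and in 9 of the downward genes both LPS libraries had 0.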

How the data were processed

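Per the labels' protocols, messenger RNA on tagged ribosomes of kidney endothelium was isolated from 8 mice, minced kidney was lysed in Trizol, and libraries were made with an Ion AmpliSeq mouse transcriptome kit on an Ion Chef. The labels give 1 library per mouse, so p-values measure the spread between mice. The authors deposited reads per 1000000 panel reads (RPM), 1 column per mouse; the submitters' processing notes name mm10 and the Transcriptome Analysis Console, and the aligner is not given in the sources used here. Of the gene names, 27 had become dates and were restored, and 0 other sample columns were present. Within each library 100% of the RPM values were whole reads within 0.1 read, so reads were recovered. PCR copies carry no molecular identifiers, so intervals and floors of 3 reads cover counting error only.

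Genes were kept by filterByExpr (minimum count 10, minimum total 15). Limma 3.58.1 in R 4.3.3 with a trended prior was fitted to log2(TMM-scaled RPM + 1) of all 8 libraries, with 1 mean per group. The same fit was run on simulated reads with known changes. These had the same spread in all groups and as many rises as falls. They therefore cannot check the spread borrowed for the saline group or the scaling. EdgeR 4.0.16 on recovered reads called 2297 genes higher and 2897 lower, and DESeq2 1.42.0 was a further alternative. No covariate was used. A list is described by its numbers tested, called and large and by its median, with no list test. Members and lists were chosen with earlier results of these data known.

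Genes were named by rule: Socs3, the 15 largest changes per direction with a mean of at least 3 on the log2 scale, up to 4 members per gene list, the 5 with the widest gap between LPS libraries and the 5 per direction with the largest difference from WT. Positions are RefSeq gene bounds in GRCm38.p6, the assembly of mm10. GC content was known for 12630 genes (98.5%), and its median was 50.3% in upward large changes, 51.5% in downward ones and 49.8% in all. Strand and amplicon positions are not given, so overlapping genes may share reads. Some named genes are not reported here.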

Additional observations from a re-analysis of the deposited data

Results flagged for a closer look

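The LPS effect in SOCS3iKEO minus that in WT passed at an adjusted p under 0.05 (limma) for 27 of the genes with the largest changes or differences. Genes named for their difference were chosen among those that passed, and the others by the SOCS3iKEO effect. The 27 is thus no measure of how common such differences were. Over all genes tested the difference passed for 8.96% upward and 9.5% downward. Each value below is that difference on the log2 scale, so a positive one means a larger rise, or smaller fall, in SOCS3iKEO. The number run of the mice coincides with this difference and cannot be told apart from it.

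Among upward genes Cebpd differed by 5.94, Tnfrsf11b by 5.66, Cxcl2 by 5.20, Cxcl1 by 3.91 and Lbx1 by 3.87. These 5 calls held when any 1 of the 7 libraries other than SOCS3iKEO saline was left out, although Lbx1, at 0 reads in SOCS3iKEO saline, did not pass with edgeR (adjusted p = 0.198) or DESeq2 (0.197). Cxcl11 differed by 5.84, Il6 by 5.30 and Cxcl10 by 5.07, all lost without the first WT saline library. Il6, at 0 and 1 reads in WT saline, has a value that depends on the pseudocount and did not pass with edgeR (adjusted p = 0.765) or DESeq2 (0.577). Csf3, at 0 reads in every saline library, differed by 3.46, a value that depends on the pseudocount and did not pass with edgeR (adjusted p = 1) or without either WT saline library. Akap12 differed by 5.33, Mt1 by 4.18, Sphk1 by 4.03 and Slfn4 by 2.82. Each of these 4 lost its call without either WT saline library or without the first SOCS3iKEO LPS library. Akap12, Mt1 and Slfn4 also lost it without the third WT LPS library. Slfn4 lost it as well without the second SOCS3iKEO LPS library or the second WT LPS library.

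Among downward genes Pkn3 differed by -5.40, Lyl1 by -4.75, Arhgap27 by -4.70, Hs1bp3 by -4.44, Rarg by -4.22, Vamp5 by -4.22, Zfp366 by -4.03 and 2700081O15Rik by -3.28. These 8 calls held under the same omissions. Exoc3l2 differed by -4.65, Ptpru by -4.24, Dapk2 by -3.04 and Smco4 by -2.56, all lost without the first WT saline library. Slc9a3r2 differed by -4.56 and 3110099E03Rik by -2.64, both lost without either WT saline library, and 3110099E03Rik also without the first SOCS3iKEO LPS or the third WT LPS library.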

How the results depend on the processing

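On RPM as deposited 1219 genes were called higher and 5687 lower, with 402 and 2186 large changes, and the difference from WT passed for 621 and 2561 genes. A pseudocount of 10 left 485 and 240 large changes, and one of 0.1 gave 1617 downward. Without the filter on low counts the difference passed for 488 and 464 genes. With the 3 SOCS3iKEO libraries alone and their 1 residual degree of freedom, 0 genes were called in either direction (limma, 4559 at an unadjusted p under 0.05, smallest adjusted p 0.0613). Leaving out in turn each of the 7 libraries other than SOCS3iKEO saline gave 2186 to 2816 genes higher and 2622 to 3368 lower, 831 to 975 and 813 to 1239 large changes, and 124 to 1666 and 67 to 2011 differences. The causes were not tested. EdgeR held 881 of the 890 upward and 959 of the 972 downward large changes, and DESeq2 887 and 947. Of 185 named genes 0 reversed a called direction. The saline level rests on 1 mouse and 7093794 reads, so genes at 0 reads there have only lower bounds. No paired analysis was possible because the labels carry no replicate numbers shared between groups.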
